A study of Mus musculus with 16 samples.

Results

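Immediate early genes are the genes a neuron transcribes first after synaptic activity or a growth factor, without needing new protein synthesis. Calcium and the MAP kinase cascade act on transcription factors that already sit at their promoters, such as CREB, SRF and the MEF2 family, and most of the transcripts made encode further transcription factors or synaptic proteins. Here the level of 10 of them was followed in every library, namely Fos, Fosb, Junb, Egr1, Egr2, Egr4, Npas4, Nr4a1, Ier2 and Arc. They were chosen by symbol and each matched 1 of the 53801 genes in the count table, and all 10 passed the filter on low counts.

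The 16 libraries came from cortex or striatum of 9 C57BL6/J-129sv mice at postnatal day 10. Trrap encodes a large scaffold subunit of histone acetyltransferase complexes. Trrap-FBΔ mice were homozygous for the floxed Trrap allele (Fl/Fl) and controls heterozygous (Fl/+), and mice of both genotypes carried Camk2-Cre, so the controls had 1 floxed allele and the recombinase too. Control cortices came from mice 55, 58, 63 and 64, control striata from mice 58, 63, 64 and 65, and both Trrap-FBΔ tissues from mice 57, 59, 60 and 61, and values are listed below in these orders. Mice 58, 60, 64 and 65 were male and the others female. Camk2a drives Cre in excitatory neurons of the forebrain, so RNA of the whole tissue also holds cells that keep Trrap. The methods describe the transgene as an ERT2 form of Cre, and tamoxifen treatment of these mice is not given in the sources used here.

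Each library held between 28743866 and 48761429 reads counted on genes (median 41482110). Levels are given as CPM (a gene's count relative to the size of its library) after TMM normalization over all 16 libraries, and as CPM per kilobase of exon where genes are compared with each other. The whole-gene level of Trrap did not separate the genotypes. It was 153 ± 15.6 CPM (SD, n = 4) in control and 135 ± 10.3 CPM (SD, n = 4) in Trrap-FBΔ cortex (2-sided exact permutation test p = 0.11, where the smallest p possible is 0.029), and 146 ± 5.73 and 141 ± 5.88 CPM in the striata (p = 0.34). Directions below therefore follow the labels. The tissue labels were checked with 7 cortical and 8 striatal markers. Cortical markers such as Neurod6 and Tbr1 summed to between 2754 and 3169 CPM in the libraries labelled cortex and to between 324 and 830 CPM in those labelled striatum. Markers of striatal projection neurons did not mark the libraries labelled striatum, since their sums ran from 210 to 555 CPM in the cortices and from 116 to 830 CPM in the striata. Of the 8 genes only Isl1 was called higher in control striatum than in control cortex, and 1 was called lower. The label striatum is used below as given.

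The 10 genes are short. Their spans on the genome ran from 1522 to 20527 bp with a median of 4699 bp, and all 10 lay below the median of 25306 bp over 15178 protein-coding genes tested. Promoter windows were available for 7 of them, taken from RefSeq on GRCm38.p6, with 250 bases before and 50 bases after each transcription start, whereas Arc, Ier2 and Egr1 had none. The bases before the start are printed for 4 genes picked by hand, and no annotated exon lies in the printed bases. Fos was higher in both tissues of Trrap-FBΔ mice, Nr4a1 and Egr2 were called in the cortex and not in the striatum, and Egr4 was called in neither tissue. Capitals mark TGACG, the core of the cAMP response element that CREB binds, on either strand (CGTCA when read here), the CArG box that SRF binds, and the TATA box TATAAA.
Fos: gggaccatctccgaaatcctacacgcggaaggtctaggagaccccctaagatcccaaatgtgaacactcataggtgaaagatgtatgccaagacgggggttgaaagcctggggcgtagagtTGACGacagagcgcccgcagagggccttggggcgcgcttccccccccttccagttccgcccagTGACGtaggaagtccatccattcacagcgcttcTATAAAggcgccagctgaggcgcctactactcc
Nr4a1: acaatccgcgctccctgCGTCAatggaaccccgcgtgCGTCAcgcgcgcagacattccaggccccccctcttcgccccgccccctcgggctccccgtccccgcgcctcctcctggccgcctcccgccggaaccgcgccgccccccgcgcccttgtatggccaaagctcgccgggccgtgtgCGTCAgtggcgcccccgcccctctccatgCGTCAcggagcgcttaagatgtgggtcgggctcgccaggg
Egr2: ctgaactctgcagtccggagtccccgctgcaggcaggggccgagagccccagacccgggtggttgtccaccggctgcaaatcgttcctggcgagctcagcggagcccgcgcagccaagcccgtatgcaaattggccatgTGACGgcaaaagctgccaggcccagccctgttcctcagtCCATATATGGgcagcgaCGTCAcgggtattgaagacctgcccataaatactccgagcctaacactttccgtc
Egr4: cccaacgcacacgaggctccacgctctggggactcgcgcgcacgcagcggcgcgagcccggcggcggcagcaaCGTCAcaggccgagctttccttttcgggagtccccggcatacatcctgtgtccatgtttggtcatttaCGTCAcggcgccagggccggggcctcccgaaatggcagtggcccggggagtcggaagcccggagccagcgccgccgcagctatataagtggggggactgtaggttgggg
These are chr12:85473640-85473889 on the plus strand for Fos, chr15:101266596-101266845 on the plus strand for Nr4a1, chr10:67537619-67537868 on the plus strand for Egr2 and chr6:85513590-85513839 on the minus strand for Egr4. The Nr4a1 sequence precedes a start within the annotated gene, and the Egr2 sequence precedes 1 of 5 starts listed by RefSeq.

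TGACG or its complement was found in the windows of 7 of the 7 genes, while 23.0% of the 27025 genes with a window held it. Nr4a1 held it at 4 places, Fos, Egr4 and Npas4 at 2 places each, and Fosb and Junb at 1. In the other rapidly induced genes described below, 21 of 34 genes with a window held it. The full palindrome TGACGTCA was in 0 of the 7 (2.03% of all genes). The CArG box was in the Egr2 windows only (1.81% of all genes), TATAAA in those of Fos and Junb (15.7%), the GC box GGGCGG in 5 of the 7 (38.2%), the AP-1 motif TGANTCA in 0 (8.97%) and the Egr motif GCGNGGGCG in those of Fosb and Nr4a1 (6.27%). Motifs were searched on both strands, and a GC box may overlap an Egr motif. A match describes the letters of the window, and its absence covers this window alone. Since 7 of the 7 genes held TGACG, its presence cannot separate genes such as Fos, higher in both Trrap-FBΔ tissues, from Egr4, called in neither.

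Per kilobase of exon, Egr1 was the most abundant of the 10 in every group, with 26.0 ± 4.66 CPM per kb (SD, n = 4) in control cortex and 9.93 ± 2.32 in control striatum. Nr4a1 (12.3 ± 0.583), Arc (11.5 ± 0.700), Junb (9.98 ± 0.938), Egr4 (9.24 ± 1.78) and Fos (6.43 ± 1.54) followed in control cortex, and neighbours in this order overlapped between libraries. Npas4 (4.06 ± 0.736) and Ier2 (3.99 ± 0.291) overlapped too, and both lay above Egr2 (1.30 ± 0.331) and Fosb (0.795 ± 0.295). Only the steps from Egr1 to Nr4a1 and from Ier2 to Egr2 showed no overlap. The order in the Trrap-FBΔ cortex was the same from Egr1 to Fosb. In the Trrap-FBΔ striatum, Fos stood at the third place with 7.78 ± 1.14 CPM per kb and Egr4 at the eighth with 2.41 ± 0.613, against the fifth and sixth place in control striatum. In both striatal groups Fos overlapped the genes next to it in the order, and Egr4 overlapped the gene above it.

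In the cortex, the comparison of genotypes asked which genes depend on Trrap. All 10 immediate early genes had a higher mean in Trrap-FBΔ than in control cortex. Of all genes tested, 50.1% had a positive log2 fold change. The 10 moved together between libraries, as given below, so they are not 10 independent results. In edgeR's quasi-likelihood test 6 of 10 rose with an adjusted p under 0.05, against 15.7% of 18268 genes called higher. These were Fos, Egr2, Nr4a1, Npas4, Egr1 and Arc, with log2 fold changes between 0.38 and 0.59, and 0 of 10 were called lower (17.6% of genes). In RNA of a whole tissue, more of a transcript per cell cannot be told apart from more cells that make it. The median log2 fold change of the 10 was 0.40, and that of all genes tested was 0.0010. The groups did not overlap for 3 of 10 genes, against 16.0% of all genes tested with every Trrap-FBΔ library above every control.

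**Figure D1:**
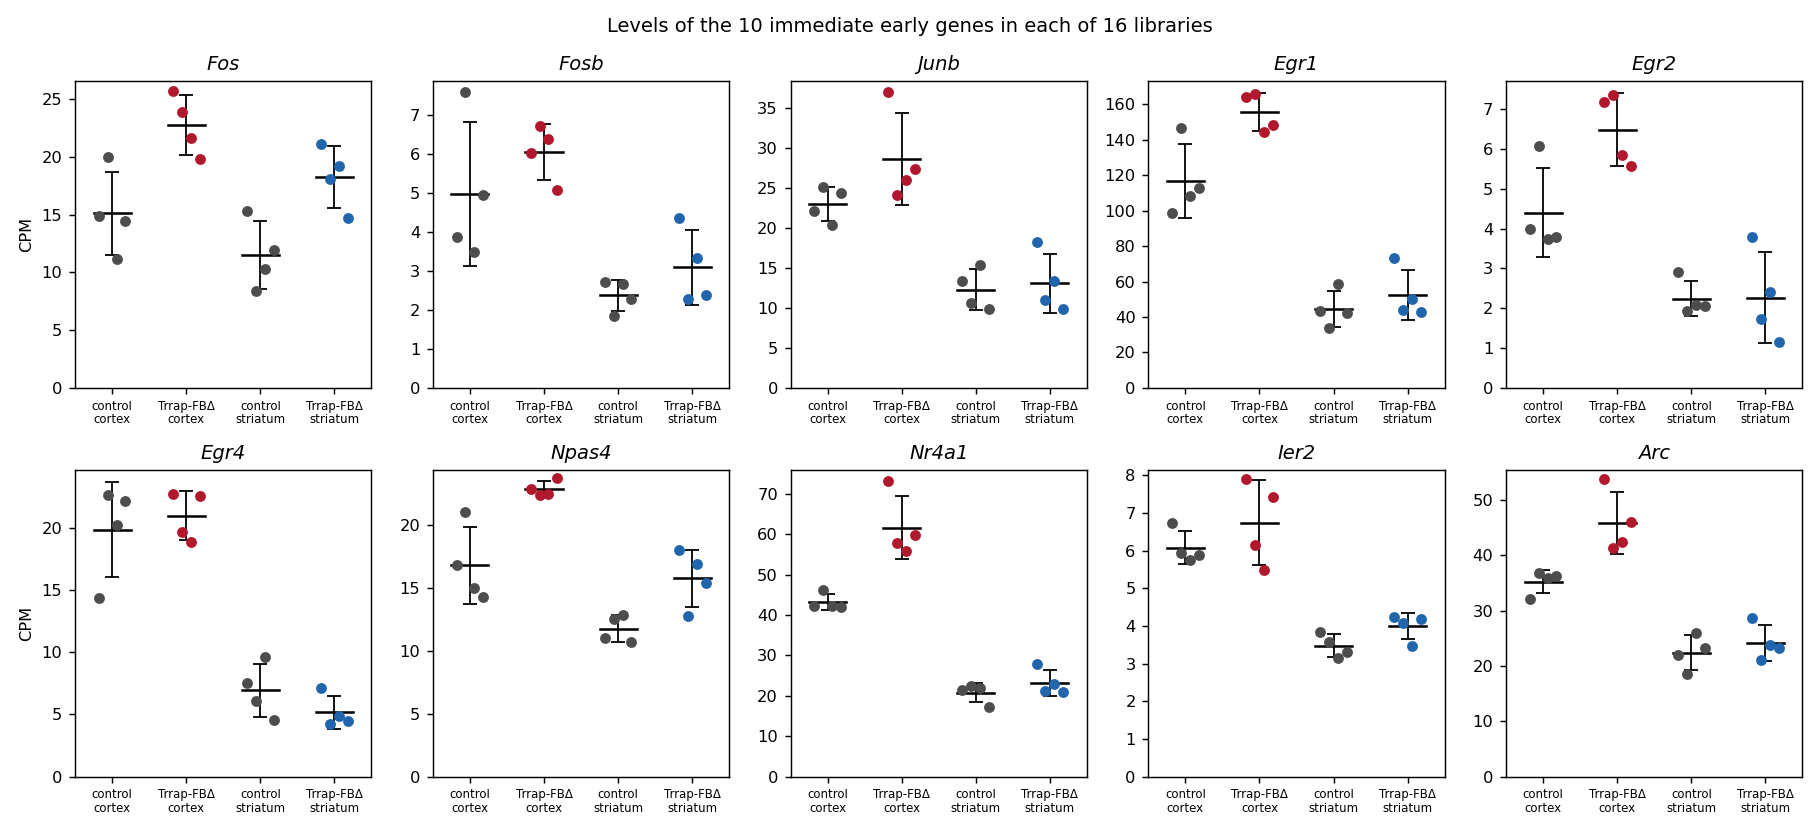
Level of each immediate early gene (CPM, linear axes from 0) in the 4 libraries of each group, with points for libraries in order of mouse number, a bar for the mean and whiskers for the SD. The Trrap-FBΔ cortices lie above all control cortices for Npas4, Nr4a1 and Arc, and within each genotype the striata lie below the cortices for each gene but Fos.

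Fos, Fosb and Junb encode subunits of the AP-1 transcription factor, in which a Fos protein pairs with a Jun protein. Fos (ENSMUSG00000021250, chr12:85473890-85477273) was at 14.9, 20.0, 11.2 and 14.4 CPM in the control and at 25.7, 23.9, 21.6 and 19.9 CPM in the Trrap-FBΔ cortices. Of the Trrap-FBΔ libraries, 3 of 4 exceeded every control and the lowest lay just under the control of mouse 58. The rise was 1.503-fold (log2 0.59, SE 0.14, edgeR adjusted p = 0.0093). Fosb (ENSMUSG00000003545, chr7:19302696-19310051) was at 3.88, 7.57, 3.48 and 4.94 CPM in the controls and at 6.02, 6.70, 6.37 and 5.07 CPM in Trrap-FBΔ. The control of mouse 58 was the highest library of both groups, and the difference did not pass the test (log2 0.27, SE 0.20, edgeR adjusted p = 0.34). Junb (ENSMUSG00000052837, chr8:84974484-84978718) was at 22.0, 25.1, 20.4 and 24.4 CPM in the controls and at 36.9, 24.1, 25.9 and 27.3 CPM in Trrap-FBΔ, where mouse 57 stood highest and the groups overlapped. Its log2 difference was 0.31 (SE 0.12, edgeR adjusted p = 0.066).

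Egr1, Egr2 and Egr4 encode zinc finger factors that bind GC-rich promoters. Egr1 (ENSMUSG00000038418, chromosome 18) was at 98.8, 147, 108 and 113 CPM in the control and at 164, 166, 145 and 148 CPM in the Trrap-FBΔ cortices, a 1.33-fold rise (log2 0.41, SE 0.10, edgeR adjusted p = 0.0090). The control of mouse 58 reached into the Trrap-FBΔ range and the other controls lay clear of it. Egr2 (ENSMUSG00000037868, chr10:67535475-67542188) was at 3.99, 6.08, 3.74 and 3.80 CPM in the controls and at 7.17, 7.34, 5.85 and 5.57 CPM in Trrap-FBΔ. It rose by 0.55 on the log2 scale (SE 0.16, edgeR adjusted p = 0.022), again with the control of mouse 58 inside the Trrap-FBΔ range. Egr4 (ENSMUSG00000071341, chr6:85511121-85513589) was at 14.3, 22.7, 20.2 and 22.2 CPM in the controls and at 22.7, 19.7, 18.9 and 22.6 CPM in Trrap-FBΔ. The ranges coincided but for the low control of mouse 55, and the log2 difference was 0.07 (SE 0.12, edgeR adjusted p = 0.68).

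Nr4a1 encodes an orphan nuclear receptor, Npas4 a neuron-specific bHLH-PAS factor induced by calcium, Ier2 a small nuclear protein, and Arc a protein that acts at the postsynapse in AMPA receptor endocytosis. Nr4a1 (ENSMUSG00000023034, chr15:101254269-101274795) was at 42.3, 46.3, 42.3 and 41.9 CPM in the control and at 73.2, 57.9, 55.9 and 59.8 CPM in the Trrap-FBΔ cortices. Every Trrap-FBΔ library lay above every control, and the rise was 1.43-fold (log2 0.51, SE 0.079, edgeR adjusted p = 0.00066). Npas4 (ENSMUSG00000045903, chr19:4984355-4990316) was at 16.9, 21.1, 15.0 and 14.3 CPM in the controls and at 22.9, 22.4, 22.5 and 23.8 CPM in Trrap-FBΔ, again without overlap. It rose 1.36-fold (log2 0.44, SE 0.10, edgeR adjusted p = 0.0074), and its SD was 0.630 CPM in Trrap-FBΔ against 3.04 CPM in the controls. Arc (ENSMUSG00000022602, chr15:74669083-74672570) was at 32.1, 36.9, 35.8 and 36.2 CPM in the controls and at 53.7, 41.2, 42.4 and 45.9 CPM in Trrap-FBΔ. Its groups did not overlap either, and it rose 1.30-fold (log2 0.38, SE 0.082, edgeR adjusted p = 0.0047). Ier2 (ENSMUSG00000053560, chr8:84661331-84662852) was at 6.73, 5.94, 5.74 and 5.89 CPM in the controls and at 7.91, 6.14, 5.48 and 7.42 CPM in Trrap-FBΔ. The lowest library of both groups was a Trrap-FBΔ cortex, and the log2 difference was 0.16 (SE 0.12, edgeR adjusted p = 0.33).

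**Figure D2:**
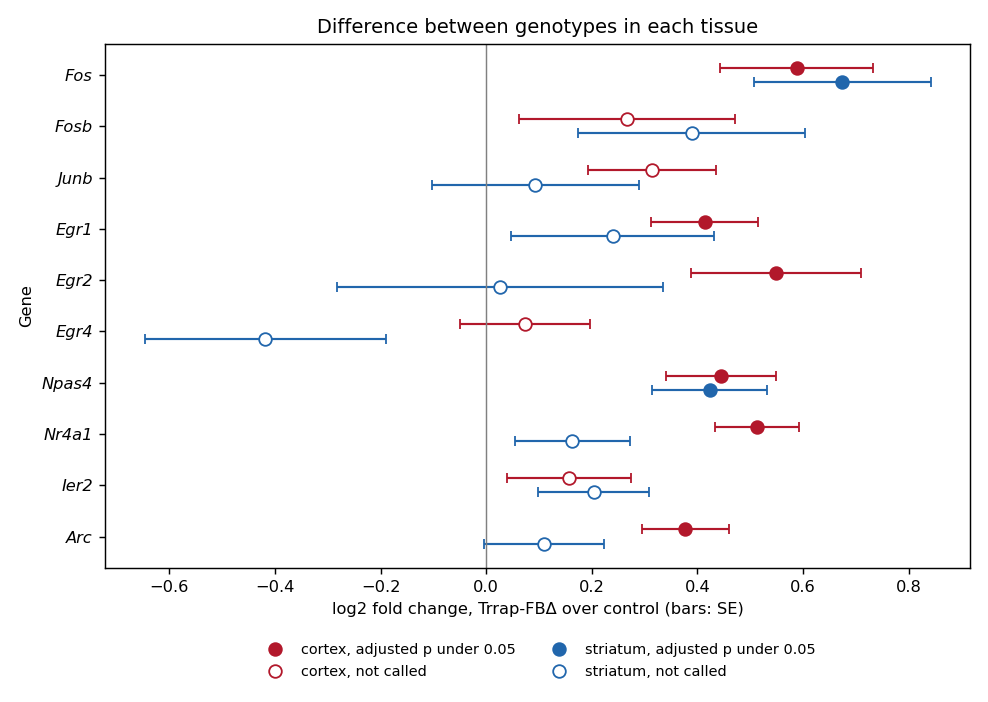
Log2 fold change of Trrap-FBΔ over control for each immediate early gene (x axis, log2 scale, bars are the SE of edgeR's fit) in the cortex and the striatum, filled where the adjusted p is under 0.05. In the cortex 6 of 10 points are filled and all 10 lie above 0, in the striatum Fos and Npas4 are filled and Egr4 lies below 0.

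The call for Egr2 was lost when any of the control cortices of mice 63 or 64 or the Trrap-FBΔ cortices of mice 57 or 59 was left out (adjusted p between 0.055 and 0.063), while without the control cortex of mouse 58 Fosb was called as well (log2 0.55, adjusted p = 0.016). With all 16 libraries in 1 fit, Egr1 (adjusted p = 0.068) and Egr2 (adjusted p = 0.10) were not called, whereas Junb was called by DESeq2 (adjusted p = 0.037), by edgeR with no filter on low counts (adjusted p = 0.020) and without the Trrap-FBΔ cortex of mouse 59 (adjusted p = 0.036). Markers of other cells moved with the genotype in the cortex. Of 8 markers each, 8 of oligodendrocytes and 8 of microglia were called lower in Trrap-FBΔ cortex, and their summed levels ran from 1957 to 3350 CPM in control and from 1447 to 2170 CPM in Trrap-FBΔ cortex for oligodendrocytes, and from 373 to 421 and from 271 to 341 CPM for microglia, with no marker at 0 in a group. The 7 cortical neuron markers summed to between 2782 and 3169 CPM in control and to between 2754 and 2867 CPM in Trrap-FBΔ cortex, with 1 called lower. The summed mature neuron markers were lower without overlap, at 9256 to 10332 CPM in control and 8457 to 8833 CPM in Trrap-FBΔ cortex. The 3 of 8 called lower were Stmn2, Map2 and Nefl (log2 -1.04, -0.34 and -0.32). Snap25, Syt1, Camk2a, Rbfox3 and Gria2 had log2 differences between -0.06 and 0.11. The summed endothelial markers were lower without overlap too, at 260 to 308 CPM and 235 to 252 CPM (5 of 8 called lower). Of 8 astrocyte markers 3 were called higher and 2 lower, with overlapping sums. Of 8 heat shock genes 1 was higher and 2 were lower, the higher being the chaperone gene Hspa1b, which rose from 0.302 ± 0.0295 to 0.728 ± 0.162 CPM (SD, n = 4 each; log2 1.26, edgeR adjusted p = 0.0021). Of 8 hypoxia genes 1 was higher and 3 were lower. The part of these cell types and genes in the result was not tested.

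In the striatum, Fos and Npas4 rose and the other 8 genes did not pass the test. The 2 of 10 genes called higher stood against 14.4% of 18872 genes, 0 were called lower (15.8%), and for 0 of 10 were all Trrap-FBΔ libraries above all controls (15.6%). Of the 10, 9 had a higher mean in Trrap-FBΔ, while 49.2% of all genes tested had a positive log2 fold change. The median log2 fold change of the 10 was 0.18, against -0.0055 over all genes tested. Fos was at 15.3, 8.39, 10.3 and 12.0 CPM in the control and at 21.1, 18.1, 19.2 and 14.7 CPM in the Trrap-FBΔ striata. As in the cortex, 3 of 4 Trrap-FBΔ libraries exceeded every control, and the rise was 1.60-fold (log2 0.67, SE 0.17, edgeR adjusted p = 0.013). Npas4 was at 11.0, 12.5, 12.9 and 10.7 CPM in the controls and at 18.1, 12.8, 16.9 and 15.4 CPM in Trrap-FBΔ, a 1.34-fold rise (log2 0.42, SE 0.11, edgeR adjusted p = 0.016). Only the Trrap-FBΔ library of mouse 59 fell into the control range. Both calls held when any library was left out.

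Of the genes called in the cortex and not in the striatum, Nr4a1 was at 21.5, 22.4, 21.8 and 17.3 CPM in the control and at 27.9, 21.2, 22.8 and 20.9 CPM in the Trrap-FBΔ striata. The groups overlapped and the log2 difference was 0.16 (SE 0.11, edgeR adjusted p = 0.29). Arc was at 22.0, 18.5, 26.0 and 23.2 CPM and at 28.6, 21.1, 23.8 and 23.1 CPM, with a log2 difference of 0.11 (SE 0.11, edgeR adjusted p = 0.50). Only the Trrap-FBΔ library of mouse 57 lay above all controls. Egr1 was at 43.1, 34.0, 58.8 and 42.1 CPM and at 73.2, 44.1, 50.1 and 42.6 CPM, so that again only mouse 57 exceeded every control (log2 0.24, SE 0.19, edgeR adjusted p = 0.38). Egr2 was at 2.90, 1.94, 2.08 and 2.05 CPM and at 3.78, 1.72, 2.41 and 1.16 CPM, with both the highest and the lowest library in the Trrap-FBΔ group. Its log2 difference was 0.03 (SE 0.31), and without the Trrap-FBΔ library of mouse 57 it was -0.34 (edgeR adjusted p = 0.36).

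Egr4 was the only member with a lower mean in Trrap-FBΔ striatum, at 7.50, 6.09, 9.60 and 4.55 CPM in the controls and at 7.10, 4.24, 4.88 and 4.45 CPM in Trrap-FBΔ. The groups overlapped and the log2 difference of -0.42 (SE 0.23) did not pass the test (edgeR adjusted p = 0.19). Junb was at 13.4, 10.6, 15.3 and 9.80 CPM and at 18.2, 11.0, 13.3 and 9.80 CPM (log2 0.09, SE 0.20, edgeR adjusted p = 0.75). Fosb was at 2.71, 1.84, 2.66 and 2.27 CPM and at 4.34, 2.27, 3.34 and 2.39 CPM, with 2 Trrap-FBΔ libraries above all controls (log2 0.39, SE 0.22, edgeR adjusted p = 0.20). Ier2 was at 3.84, 3.58, 3.16 and 3.32 CPM and at 4.24, 4.09, 3.48 and 4.19 CPM. Here 3 of 4 Trrap-FBΔ libraries lay above all controls, and the log2 difference was 0.20 (SE 0.11, edgeR adjusted p = 0.17). Cortical neuron markers were lower in the Trrap-FBΔ striata, with 6 of 7 called (median log2 -0.75), and summed to between 518 and 830 CPM in control and to between 324 and 494 CPM in Trrap-FBΔ striatum, none at 0 in a group. Mature neuron markers summed to between 6961 and 7311 CPM in control and to between 5402 and 5714 CPM in Trrap-FBΔ striatum, without overlap. Of these markers 4 of 8 were called lower and 4 were not called, and the log2 differences of the 8 ran from -0.93 for Stmn2 to 0.08. Microglial markers were lower too, with 6 of 8 called and sums of 304 to 370 CPM and of 257 to 272 CPM. Astrocyte markers, with 3 called higher and 1 lower of 8, had sums of 4197 to 4578 CPM in control and of 3840 to 4160 CPM in Trrap-FBΔ striatum, and heat shock genes had 1 called higher and 3 lower. Their part in these values was not tested.

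Whether the genotype acted differently on these genes in the tissues was tested by an interaction term over all 16 libraries. Of the 10 genes 0 passed, against 0.437% of 19438 genes, and 1 had an unadjusted p under 0.05. This was Nr4a1, whose striatal effect was lower than its cortical effect by 0.35 on the log2 scale (SE 0.14, unadjusted p = 0.026, adjusted p = 0.33 in edgeR's test across all genes). DESeq2 and limma-voom called 0 of 10 as well. With the mouse as a fixed block, in which mice 55 and 65 carry no information on this contrast since each gave a single library, Nr4a1 passed (log2 -0.43, edgeR adjusted p = 0.037), and with the mouse as a random block in limma-voom 0 of 10 did. Arc (-0.27, SE 0.15), Egr4 (-0.49, SE 0.28) and Egr2 (-0.52, SE 0.37) had lower striatal effects that did not pass. For Fos (0.09, SE 0.24), Npas4 (-0.02, SE 0.16) and Ier2 (0.05, SE 0.16) the log2 difference of the effects was smaller than its SE. A call in the cortex and none in the striatum is therefore not shown to be a difference between tissues for Egr1, Egr2 and Arc. Nor is it settled for Nr4a1. The main test, which leaves the pairing of tissues out, did not call that difference. Of the settings that use the mouse, the fixed block called it and the random block did not. The rest of the 28 alternative settings leave the pairing out as well, and none of them called it.

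Between tissues, 9 of the 10 genes were called lower in striatum than in cortex in both genotypes, in a fit that leaves the pairing of tissues out. With the mouse as a block, described below, all 10 were called lower. In controls, Egr4 was lower 2.88-fold (log2 -1.53, SE 0.20, edgeR adjusted p = 8.4e-06), Egr1 2.63-fold (log2 -1.39, SE 0.17) and Nr4a1 2.08-fold (log2 -1.06, SE 0.10), and Npas4 differed least of the 9 (log2 -0.51, SE 0.12, edgeR adjusted p = 0.0016). The background was 22.0% of 19438 genes called lower. For the same 9 genes every control striatum lay below every control cortex, against 18.9% of all genes. Fos was the gene that was not called, at 15.1 ± 3.63 CPM in control cortex and 11.5 ± 2.93 CPM in control striatum (SD, n = 4 each; log2 -0.40, SE 0.18, edgeR adjusted p = 0.074).

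**Figure D3:**
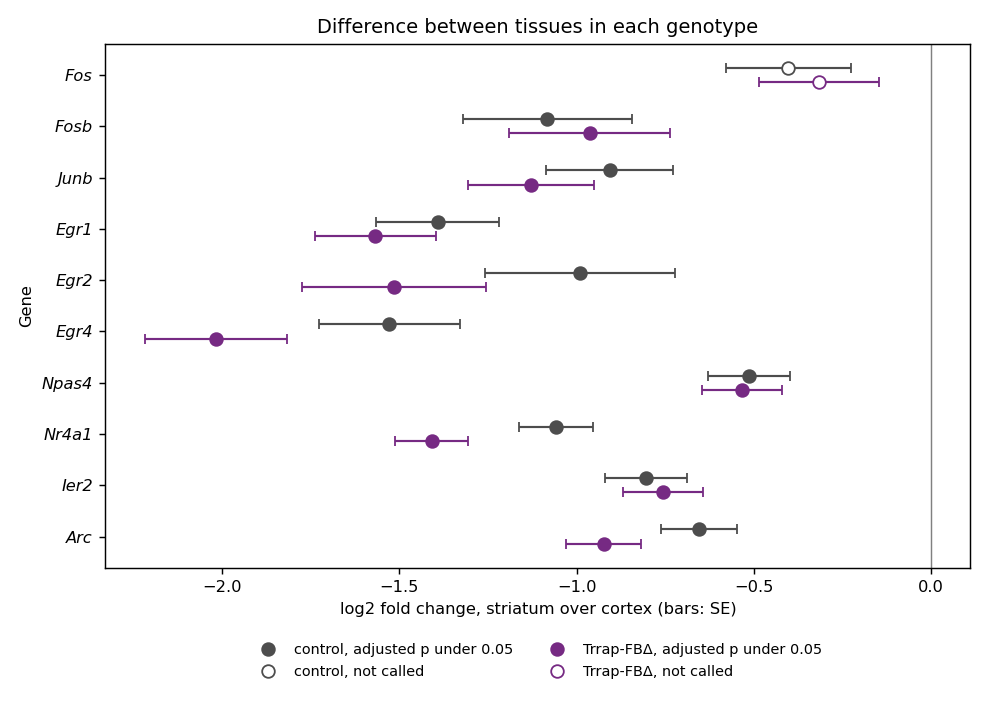
Log2 fold change of striatum over cortex for each immediate early gene (x axis, log2 scale, bars are the SE) in control and in Trrap-FBΔ mice, filled where the adjusted p is under 0.05. All points lie below 0, those of Egr4 lie farthest from it, and those of Fos are the 2 open ones.

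In Trrap-FBΔ mice the same 9 genes were called lower (25.9% of all genes) and did not overlap (24.5%), with Egr4 4.05-fold (log2 -2.02, SE 0.20, edgeR adjusted p = 2.5e-07), Egr1 2.96-fold (log2 -1.57, SE 0.17) and Egr2 2.86-fold lower (log2 -1.51, SE 0.26). Fos was at 22.8 ± 2.57 CPM in Trrap-FBΔ cortex and at 18.3 ± 2.68 CPM in Trrap-FBΔ striatum (SD, n = 4 each), which did not pass (log2 -0.32, SE 0.17, edgeR adjusted p = 0.13). Tissues of the same mouse are paired, and with the mouse as a fixed block Fos was called in both genotypes (controls log2 -0.43, edgeR adjusted p = 0.00070; Trrap-FBΔ log2 -0.32, edgeR adjusted p = 0.00067), as it was with a random block, so that all 10 genes were lower. The call in controls was also made without the control cortex of mouse 63 (adjusted p = 0.023) or the control striatum of mouse 58 (adjusted p = 0.014). Mature neuron markers summed to between 9256 and 10332 CPM in control cortex and to between 6961 and 7311 CPM in control striatum, and 8 of 8 oligodendrocyte markers were higher in striatum, summing to between 3406 and 9749 CPM in control striatum. No marker of these lists was at 0 in a group, and their part in the lower levels was not tested.

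The members varied more between mice of a group than most genes. The within-group SD of log2 CPM had a median of 0.28 over the 10, against 0.11 over 14977 genes with a mean count of at least 50, and was largest for Egr2 (0.43) and Fosb (0.37) and smallest for Nr4a1 and Ier2 (0.16 each). Deviations from the group means moved together. Across the 16 libraries, Pearson's r between pairs of members had a median of 0.53 over 45 pairs, 42 of them positive, while the median over all pairs of genes was -0.0003. These r describe libraries that share mice, and no p was computed. Junb and Nr4a1 (0.84), Fosb and Egr1 (0.83) and Fosb and Egr2 (0.81) were the closest pairs, and Ier2 was least like the rest (-0.20 with Fosb, -0.11 with Egr1).

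Libraries differed in how many members they held the extreme of. In the control cortex, mouse 58 held the highest value for 9 of 10 genes. In the Trrap-FBΔ striatum, mouse 57 held it for 10 of 10, and its cortex was the highest of its group for 6 of 10. In the control striatum, mouse 64 was highest for 5 and mouse 58 for 4, and the lowest value lay with mouse 63 for 5 genes in both control tissues and with mouse 61 for 5 in the Trrap-FBΔ striatum. Relative to the control mean of the tissue, the mean over the 10 genes was 0.28 on the log2 scale in the control cortex of mouse 58 and between -0.15 and -0.02 in the other control cortices. It was between 0.28 and 0.55 in the Trrap-FBΔ cortices. In the Trrap-FBΔ striata it was 0.57 in mouse 57, 0.21 in mouse 60, -0.02 in mouse 59 and -0.07 in mouse 61, while control striata ran from -0.16 to 0.16.

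**Figure D4:**
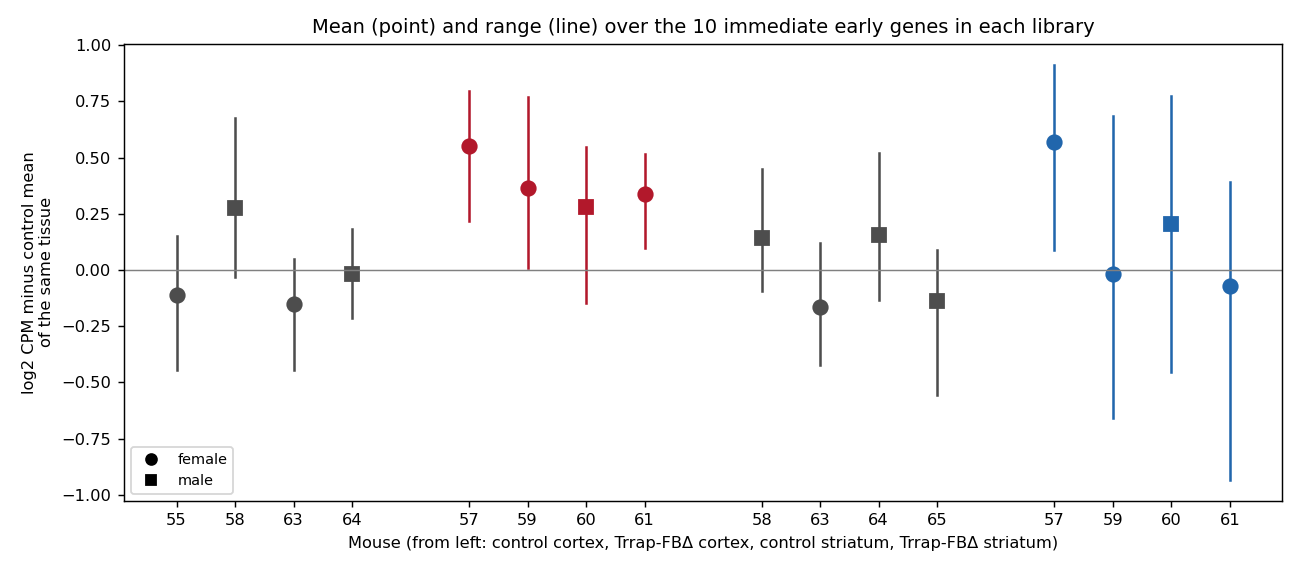
Mean (point) and range (line) over the 10 immediate early genes of log2 CPM minus the control mean of the same tissue, for each library by mouse number, circles for females and squares for males. The Trrap-FBΔ cortices have means between 0.28 and 0.55, and in the Trrap-FBΔ striatum mouse 57 stands apart at 0.57.

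The genes most like the mean deviation of the 10, among 14967 others over the 16 libraries, were Phpt1 (r = 0.89), Selplg (0.84), Egln3 (0.83), Gm7694 (0.80) and Cnn2 (0.80). The other rapidly induced genes, described below, ran from r = 0.74 for Per1 to -0.28 for Klf6. Per1, a clock gene that CREB also induces, came at place 20. Trib1 reached 0.60, the AP-1 gene Fosl2 0.59 and Egr3 0.56. Jun, the usual partner of Fos, reached 0.30.

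**Figure D5:**
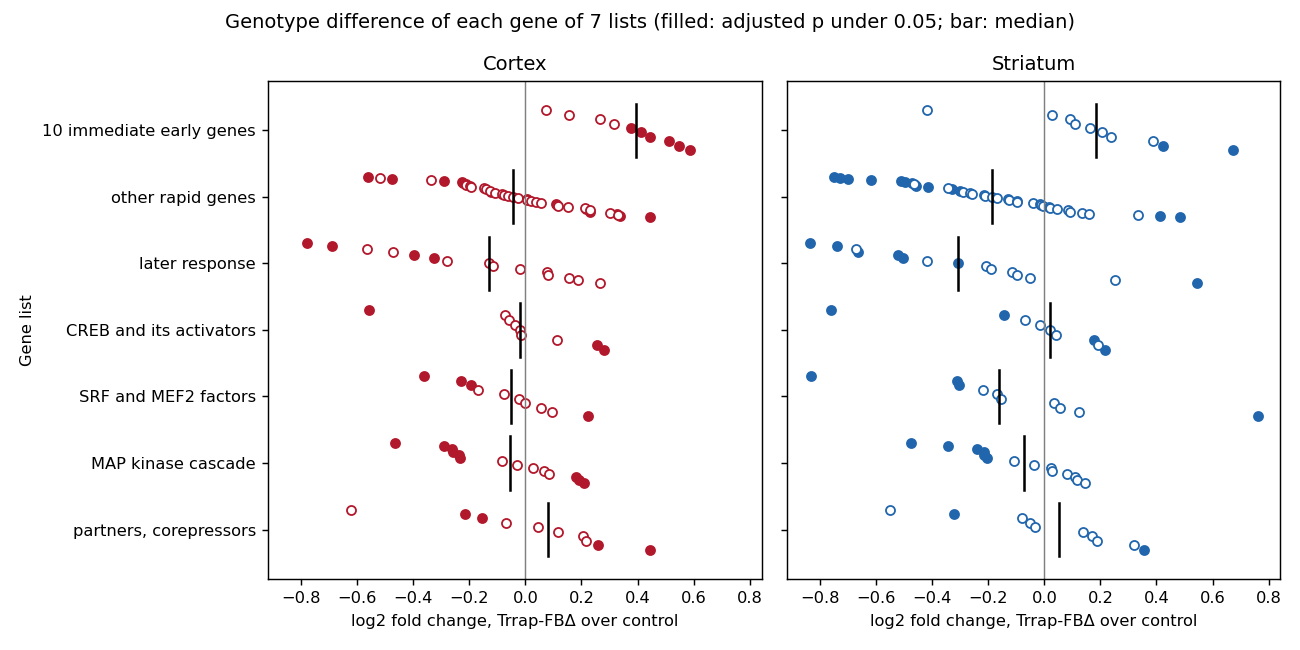
Log2 fold change of Trrap-FBΔ over control (x axis, log2 scale) for each gene of 7 lists in the cortex (left) and the striatum (right), filled where the adjusted p is under 0.05, with a bar at the list's median. The immediate early genes have medians of 0.40 and 0.18, and those of the other rapid genes and the later response lie below 0 in both tissues.

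Other rapidly induced genes gave mixed counts. Of 39 that were tested, 5 were called higher and 6 lower in the cortex (median log2 -0.05), and 2 higher and 12 lower in the striatum (median -0.19). In the cortex these were 12.8% and 15.4%, against 15.7% of all genes called higher and 17.6% called lower. In the striatum they were 5.13% and 30.8%, against 14.4% and 15.8%. Csrnp1, which encodes a nuclear protein, and Per1 were higher in both tissues. Csrnp1 was at 4.75, 3.76, 4.49 and 4.50 CPM in control and at 6.04, 6.42, 5.46 and 5.86 CPM in Trrap-FBΔ cortex, without overlap (log2 0.45, edgeR adjusted p = 0.0052), and rose by 0.48 in the striatum (edgeR adjusted p = 0.011). Per1 rose by 0.34 in the cortex (edgeR adjusted p = 0.0024) and by 0.41 in the striatum (edgeR adjusted p = 0.0078). Nr4a2, a paralogue of Nr4a1, rose in the cortex (log2 0.33, edgeR adjusted p = 0.016) and had -0.21 in the striatum (edgeR adjusted p = 0.40).

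Jun was lower in both Trrap-FBΔ tissues. It was at 49.9, 47.9, 44.3 and 57.5 CPM in control and at 34.7, 34.2, 35.8 and 38.7 CPM in Trrap-FBΔ cortex (log2 -0.48, SE 0.076, edgeR adjusted p = 0.00081), and the log2 difference in the striatum was -0.33 (edgeR adjusted p = 0.016). No Trrap-FBΔ library of either tissue reached its lowest control. The polo-like kinase gene Plk3 fell in both tissues (log2 -0.56 and -0.47, edgeR adjusted p = 7.2e-05 and 0.011). Egr3, the remaining Egr gene, was lower in the striatum (log2 -0.73, SE 0.21, edgeR adjusted p = 0.027), where it was at 26.6, 32.6, 47.5 and 24.3 CPM in control and at 24.2, 17.8, 22.4 and 14.7 CPM in Trrap-FBΔ. In the cortex its log2 difference was -0.15 (edgeR adjusted p = 0.12). Fosl2 (log2 -0.70, edgeR adjusted p = 0.0039) and the cyclooxygenase gene Ptgs2 (log2 -0.75, edgeR adjusted p = 0.045) also fell in the striatum, and the matricellular gene Ccn2 fell in the cortex (log2 -0.29, edgeR adjusted p = 0.038). The call for Egr3 was lost without the control striatum of mouse 64 or the Trrap-FBΔ striata of mice 59 or 61 (adjusted p up to 0.072), that for Ptgs2 without any of 6 of the 8 striata (up to 0.11) and that for Ccn2 without any of 5 of the 8 cortices (up to 0.10).

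Of 15 genes of the slower response to activity, which in part needs new protein synthesis, 0 were higher and 4 lower in the cortex, and 1 was higher and 6 lower in the striatum. Those called lower were 26.7% and 40.0%, against 17.6% and 15.8% of all genes, and 15.7% and 14.4% of all genes were called higher. Adcyap1, encoding the neuropeptide PACAP, fell by 0.78 on the log2 scale in the cortex (edgeR adjusted p = 8.2e-06), the neuritin gene Nrn1 by 0.69 (edgeR adjusted p = 0.00015), and the neuropeptide precursor gene Vgf by 0.40 (edgeR adjusted p = 0.047). The call for Vgf was lost without any of 6 of the 8 cortices (adjusted p up to 0.12). Bdnf, a neurotrophin gene, was at 30.5, 28.1, 17.3 and 30.4 CPM in control and at 15.2, 17.0, 17.9 and 16.9 CPM in Trrap-FBΔ striatum (log2 -0.67, SE 0.16, edgeR adjusted p = 0.0097), with the control of mouse 64 inside the lower range. In the cortex Bdnf had 0.08 (edgeR adjusted p = 0.51). The activin subunit gene Inhba (log2 -0.84, edgeR adjusted p = 0.0024) and Rasgrp1 (log2 -0.74, edgeR adjusted p = 0.011), which encodes a Ras activator, fell in the striatum as well. The synaptic pentraxin gene Nptx2 was the exception, with 27.8 to 30.6 CPM in control and 41.2 to 44.6 CPM in Trrap-FBΔ striatum (log2 0.55, edgeR adjusted p = 0.00020).

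Genes that act upstream of the members gave mixed counts. Over all genes, 15.7% were called higher and 17.6% lower in the cortex, and 14.4% and 15.8% in the striatum. Of 9 genes of CREB and its activators, 2 were higher and 1 lower in the cortex and 2 higher and 2 lower in the striatum. The kinase gene Camk4 fell in both tissues (log2 -0.56 and -0.76, edgeR adjusted p = 0.0088 and 0.0028), the coactivator gene Crtc1 rose in the cortex (0.28, edgeR adjusted p = 0.0025), and Creb1 itself had -0.02 in the cortex (edgeR adjusted p = 0.81) and fell by 0.14 in the striatum (edgeR adjusted p = 0.043). Of 10 SRF and MEF2 genes, 1 was higher and 3 lower in each tissue. Mef2c, which also served as a cortical marker, fell by 0.23 in the cortex and by 0.83 in the striatum (edgeR adjusted p = 0.031 and 0.0053), while Elk1, an SRF cofactor gene, rose in the cortex (0.22, edgeR adjusted p = 0.0018). Of 14 MAP kinase cascade genes, 3 were higher and 6 lower in the cortex and 0 higher and 6 lower in the striatum, with Nras lowest in both (log2 -0.46 and -0.47, edgeR adjusted p = 0.00027 and 0.0011). Of 10 partners and corepressors of the encoded factors, 2 were higher and 2 lower in the cortex and 1 higher and 1 lower in the striatum. Rxra, whose product pairs with Nr4a1, rose in both (0.44 and 0.36, edgeR adjusted p = 0.00071 and 0.013), and the RNA helicase gene Ddx5 fell in both (-0.22 and -0.32, edgeR adjusted p = 0.012 and 0.0013). Arnt, a bHLH-PAS gene, rose in the cortex (0.26, edgeR adjusted p = 0.016) and Arnt2, whose product pairs with Npas4, fell there (-0.15, edgeR adjusted p = 0.029). The calls for Creb1 in the striatum and for Mef2c and Arnt2 in the cortex were lost without any of 7, 5 and 5 of the 8 libraries of the tissue (adjusted p up to 0.12, 0.072 and 0.091).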

How the data were processed

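Whole-tissue RNA was sequenced on a HiSeq2500 after TruSeq stranded mRNA preparation. The authors demultiplexed with bcl2fastq 1.8.4, mapped single-end reads with STAR 2.5.4b on GRCm38 and its Ensembl annotation, counted uniquely mapped reads per gene by strand with featureCounts 1.5.0, and deposited these raw counts. Reads that map to several genes are therefore lost, and antisense reads are kept apart.

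From the counts, edgeR 4.0.16 in R 4.3.3 was run with filterByExpr, TMM normalization and its quasi-likelihood test, and Benjamini-Hochberg adjustment over all genes tested, with 0.05 as the threshold. Genotypes were compared within each tissue over its 8 libraries. The interaction and the tissue contrasts were fitted over all 16. A SE is the log2 fold change over the root of the F statistic. Single values were compared by exact permutation. Symbols, spans and exon lengths came from the GENCODE annotation of GRCm38, in which 53706 of the 53801 identifiers were found.

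The members, the lists and the tests were chosen with earlier results of these data known. The text names the 10 members, Trrap, of each list up to 3 called genes per tissue and direction by size of change, the 5 genes most like the members, and markers beside a result. Markers and heat shock, hypoxia, blood and choroid plexus genes were described by counts and summed CPM, and 1 cortical marker is not reported here. Alternatives were DESeq2 1.42.0, limma 3.58.1 with voom, other normalizations and filters, a minimum fold of 1.2 (glmTreat), sex as a covariate, the mouse as a block, and leaving out each library. Leaving out both libraries of mouse 57 or 58 was added after seeing the data. The genotype and interaction tests were run on simulated counts with known changes, drawn for independent libraries with the same dispersion for every gene. That check does not cover the pairing of tissues or the wider spread of the members.

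Cortex and striatum with the same number come from the same mouse. Over autosomal genes, deviations from the group means had r between 0.041 and 0.28 in the 7 pairs of a mouse (median 0.26) and between -0.25 and 0.15 in 25 pairs of different mice (median -0.057). No library was a duplicate, as chi-square over its degrees of freedom was at least 8.26 in the 24 pairs within groups. Mice of a group are separate animals.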

Additional observations from a re-analysis of the deposited data

Results flagged for a closer look

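In 64 groups of 4 libraries, levels of the members, of Trrap and of summed markers were examined for a library far from the others (Dixon's ratio above its 95% critical value), and 5 stood out, where chance gives about 1 in 20. Of these, 3 belong to mouse 58, a control. Egr2 was at 6.08 CPM in its cortex, against 3.74 to 3.99 CPM in the other control cortices, and at 2.90 CPM in its striatum. Nr4a1 was at 46.3 CPM in its cortex, against 41.9 to 42.3 CPM in the others. The summed cortical markers were at 518 CPM in the control striatum of mouse 65, against 794 to 830 CPM in the other control striata. The summed markers of striatal projection neurons were at 396 CPM in the Trrap-FBΔ striatum of mouse 57, the library with the highest value of its group for 10 of 10 immediate early genes, against 236 to 253 CPM in the other Trrap-FBΔ striata. Blood markers and choroid plexus markers were called neither higher nor lower in the cortex (0 of 6 each), and in the striatum 1 of 6 choroid plexus markers was called higher and 0 of 6 blood markers were called.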

How the results depend on the processing

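Of 1180 values of the members' fold changes under other settings (50 results), 1130 kept their direction and their side of the threshold, 13 lost a call and 12 gained one. For 48 further fold changes of list genes, 682 of 816 values kept both and 134 lost the call. With glmTreat, which tests against a fold of 1.2, 1 of 10 members stayed called in the cortex (Nr4a1) and 0 in the striatum. This setting asks for a larger change, and it called 1381 genes in the cortex against 6090. Without a single library, the count of members called was 5 to 7 in the cortex, 2 in the striatum, 0 for the interaction, 9 to 10 between control tissues and 9 between Trrap-FBΔ tissues. With the mouse as a fixed replicate block the interaction count was 1, and the block moved the counts between tissues from 9 to 10 in both genotypes. The block changed no other call of a member. The number of all genes called also moved with the setting. By genotype it ran from 1381 to 6221 in the cortex and from 1364 to 6326 in the striatum. It ran from 1 to 430 for the interaction, from 4048 to 9292 between control tissues and from 5472 to 11124 between Trrap-FBΔ tissues. The main fit called 33.3% of all genes tested by genotype in the cortex and 30.2% in the striatum, in either direction. The 2 of 10 members called in the striatum do not exceed that share. With sex as a covariate the members called by genotype stayed at 6 and 2.

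Signs turned for differences that were not called. Without a single library, the log2 difference ran from -0.048 to 0.14 for Egr4 in the cortex, and in the striatum from -0.11 to 0.22 for Junb and from -0.34 to 0.25 for Egr2, which was -0.087 in limma-voom. The interaction ran from -0.082 to 0.26 for Fos, from -0.17 to 0.26 for Fosb, from -0.15 to 0.066 for Npas4 and from -0.038 to 0.14 for Ier2. It was 0.0046 for Npas4 with upper quartile normalization, -0.013 for Ier2 with the fixed block, and -0.093 and -0.089 for Fosb without both libraries of mouse 57 and of mouse 58. The cause was not tested. Egr2 and Fosb rested on the fewest reads, with 59 to 320 per library.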
